A study of Mus musculus with 8 samples.

Results

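Chromatin immunoprecipitation with sequencing (ChIP-seq) listed 10 PEG3 antibody peaks at 5 mouse genes, Cdc27, Ano2, Aebp2, Marchf1 and Kcnip1. They are all the peaks, among 581 in 4 lists, that overlap the RefSeq mm10 body of one of these genes or 10 kb on either side. The knockout PEG3 list held 8 of its 163 peaks there and the wild-type PEG3 list 2 of its 152. The wild-type and knockout H3K9me3 lists held 0 of 173 and 0 of 93. The genes were chosen by measured values of these samples: PEG3 antibody peaks in them had more pileup per kept tag in knockout cells or were listed in knockout alone. The difference between genotypes at these peaks is therefore a description and supports nothing by itself.

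The cells were mouse embryonic fibroblasts, primary connective-tissue cells, of strain C57BL/6, from embryos at 14.5 days post coitum. They were either wild type or labelled Peg3 knockout. Each genotype gave 1 ChIP sample with a PEG3 antibody, 1 with an antibody against trimethylated lysine 9 of histone H3 (H3K9me3), and an input, which is sonicated DNA taken without antibody (listed once per antibody, from the same raw data). Each group held 1 sample, so the genotypes were compared with no test and no p-value. The number of embryos, the design of the knockout allele and the sex of the cells were not given in the sources used here.

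Peg3 is an imprinted gene expressed from the paternal copy, and its product is a DNA-binding protein with Krüppel-type zinc fingers. A ChIP from cells that lack the target of an antibody is commonly used to see what that antibody enriches without its target. The 5 genes belong to different pathways. Cdc27 encodes a subunit of the anaphase-promoting complex (APC/C), the ubiquitin ligase that drives cells out of mitosis. Aebp2 encodes a zinc finger cofactor of Polycomb repressive complex 2, which methylates histone H3 at lysine 27. Ano2 encodes a calcium-activated chloride channel known from olfactory neurons and photoreceptors. Kcnip1 encodes a calcium-binding auxiliary subunit of Kv4 potassium channels. Marchf1 encodes a membrane-bound ubiquitin ligase that acts on MHC class II in antigen-presenting cells.

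The wild-type and knockout PEG3 libraries kept 21396407 and 16986250 tags after removal of duplicates, and their inputs 24305045 and 26470256. The knockout PEG3 library was thus the shallowest of these. At the targeted gene, Peg3, 13 wild-type and 19 knockout PEG3 peaks were listed, and the files do not measure whether PEG3 protein was absent. Heights below are the fragments over a peak's summit, also given as fragments per 1000000 kept ChIP tags (FPM). Intervals are 95% intervals and cover counting error only. Folds are the authors' values per peak.

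Of the 5 genes, Cdc27 and Ano2 had a PEG3 antibody peak in both genotypes, and both peaks were taller per kept tag in knockout. In Cdc27 the shared peak lay on chromosome 11 at 104534762 to 104534870 in wild type and at 104534744 to 104534883 in knockout. The wild-type sample had 22 fragments over the summit, 1.03 FPM (0.644 to 1.56). The knockout sample had 33, or 1.94 FPM (1.34 to 2.73). The shallower library held the taller peak, and the separate intervals of the heights overlapped. The ratio of knockout to wild type was 1.89 (1.07 to 3.40).

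In Ano2 the shared peak lay on chromosome 6 at 125877001 to 125877164 in wild type and at 125876915 to 125877172 in knockout. It had 41 fragments in wild type, 1.92 FPM (1.38 to 2.60), and 58 in knockout, 3.41 FPM (2.59 to 4.41). This was the tallest of the 5 genes' sites in both libraries, and the ratio was 1.78 (1.17 to 2.73). The interval of the wild-type height ended just above the start of the knockout one.

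The 2 ratios ranked 2 and 3 among the 62 wild-type PEG3 peaks overlapped by a knockout one, where the median was 0.939. Each wild-type peak was paired with the tallest knockout peak overlapping it. Of the 62 peaks, 27 had a ratio above 1 (43.5%), and 10 had an interval wholly above 1 (16.1%), among them both sites. By the authors' fold, which divides by the background that the peak caller set from the input, the 2 sites stood out less. Cdc27 had folds of 10.1 and 16.3 (ratio 1.62, rank 11 of 62) and Ano2 folds of 19.2 and 25.8 (ratio 1.35, rank 20 of 62), against a median fold ratio of 1.17. The summits of the 2 genotypes lay 24 bp apart in Cdc27 and 3 bp apart in Ano2.

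**Figure D1:**
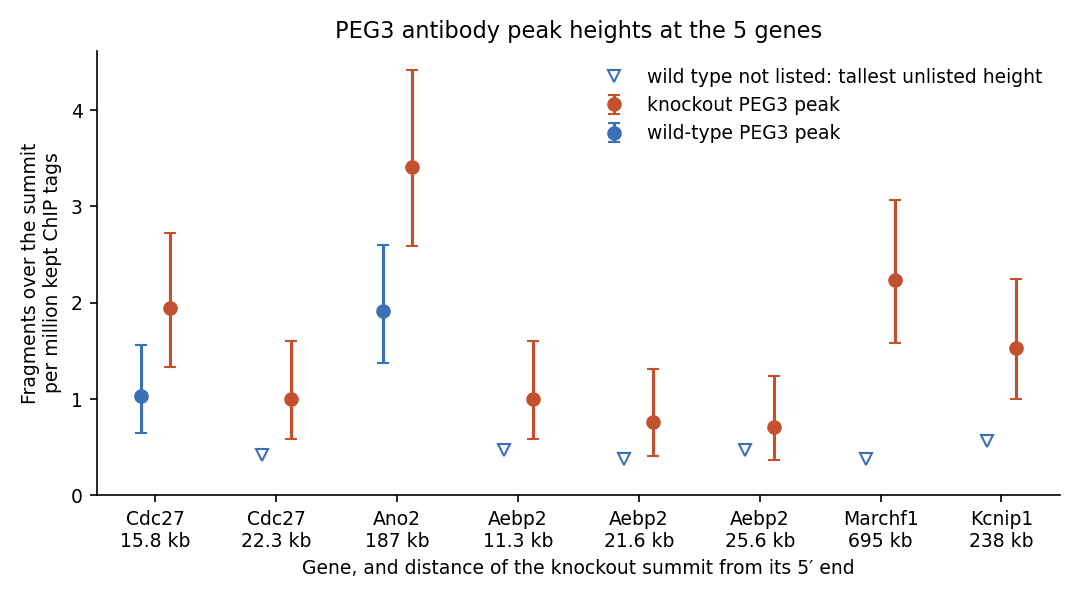
PEG3 antibody peak heights at the 8 knockout sites, in FPM (vertical axis), with 95% Poisson intervals from 1 library per genotype. Open triangles mark the tallest wild-type summit expected to go unlisted where wild type had no peak; the tallest knockout site is in Ano2 (3.41) and the lowest in Aebp2 (0.706).

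The other 6 knockout peaks were listed in knockout alone, in Marchf1, Kcnip1, Aebp2 and, as a further site, Cdc27. Over the whole knockout PEG3 list 98 of 163 peaks had no wild-type partner overlapping by at least 1 bp (60.1%), and nothing is read from the 6 of 8 found here, since the genes were picked for it. A peak table gives no height where no peak was called. The tallest wild-type summit that would stay under the lowest −log10 p-value listed there was therefore computed, with the knockout input carried over to the wild-type library. It serves as a guide and not as a bound, because the peak caller also requires a run of bases of at least the fragment length. The interval of each ratio to this limit treats the limit as a counted height, although it is a computed threshold.

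In Marchf1 the knockout sample had 38 fragments over the summit of a peak on chromosome 8 at 66312609 to 66312722, 2.24 FPM (1.58 to 3.07). Its fold of 20.5 was the highest of the 98 peaks listed in knockout alone. By the guide above, a wild-type summit of up to 8 fragments (0.374 FPM) would have gone unlisted. The knockout height was 5.98 times that value (2.75 to 14.8). Of the 6 sites, this one stood farthest from the wild-type limit.

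In Kcnip1 the knockout sample had 26 fragments over the summit of a peak on chromosome 11 at 33754923 to 33755021, 1.53 FPM (0.9999 to 2.24). Its fold was 9.23, and its height was 2.73 times the wild-type limit of 12 fragments (1.33 to 5.94). At 99 bp this peak had the shortest length that the knockout list allows. In wild type the shortest allowed length was 104 bp, so a run of the same length would not have been listed there at any height, although the longer fragment length used in wild type also widens runs.

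The second Cdc27 peak lay on chromosome 11 at 104528265 to 104528365, 6.46 kb from the shared one between the summits. It had 17 fragments over the summit, 1.001 FPM (0.583 to 1.60), and a fold of 8.93. The height was 2.38 times the wild-type limit of 9 fragments, and the interval began at 1.003. At 101 bp this peak, too, was shorter than the wild-type minimum. Among all 98 peaks listed in knockout alone, 14 were that short.

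Aebp2 carried 3 knockout peaks on chromosome 6 and none in wild type. The first, at 140633707 to 140633877, had 17 fragments, 1.001 FPM (0.583 to 1.60), and a fold of 7.88. The second, at 140643968 to 140644074, had 13 fragments, 0.765 FPM (0.408 to 1.31), and a fold of 7.37. The third, at 140647973 to 140648082, had 12 fragments, 0.706 FPM (0.365 to 1.23), and a fold of 5.69. These sites had the lowest heights in FPM together with the second Cdc27 peak.

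Heights at the Aebp2 sites were 2.14 (0.926 to 5.23), 2.05 (0.786 to 5.70) and 1.51 (0.599 to 3.91) times the wild-type limits, and all 3 intervals include 1. With the wild-type input set to the floor of the peak caller, the first gave 2.68 (1.09 to 7.17) and the intervals of the others still included 1. With the limit taken as fixed, without counting error, the height interval of the first site began above it (0.583 against 0.467 FPM). So did that of the second (0.408 against 0.374 FPM), whereas that of the third included it (0.365 to 1.23 FPM, limit 0.467). Whether the interval of the first ratio included 1 thus depended on the assumed input. No wild-type height was measured at the Aebp2 sites, so the size of any difference is not known, although none of the 3 was listed in wild type. The nearest wild-type PEG3 summit lay 2.88 Mb from the first of them. A peak of knockout alone lay within 10 kb of 29 of the 21900 protein-coding genes (0.132%), and 4 genes had 3 or more. The others, named after their values were seen, were Peg3, Usp29, whose window shares peaks with that of Peg3, and 9230019H11Rik. Each of these others also had 2 or more peaks listed in wild type alone.

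All 10 peaks lay wholly inside the gene bodies, and all summits were over 10 kb from either end of a protein-coding gene. Counting peaks inside and outside genes alike, 110 of the 163 knockout PEG3 peaks (67.5%) and 62 of the 152 wild-type ones (40.8%) had a summit that far from a gene end. Inside a protein-coding gene lay 63 knockout and 92 wild-type peaks, so these shares include many peaks between genes. The rule used the gene body, so the place inside a gene is no finding, whereas the distance from its ends was not used. Marchf1, Kcnip1 and Ano2 are long genes, which leaves much of the body far from an end. Marchf1 spans 854.8 kb, Kcnip1 364.0 kb and Ano2 349.7 kb, each longer than at least 98.0% of the 21900 protein-coding genes with a position. Aebp2 (56.0 kb) and Cdc27 (48.1 kb) were longer than 79.6% and 76.6%.

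**Figure D2:**
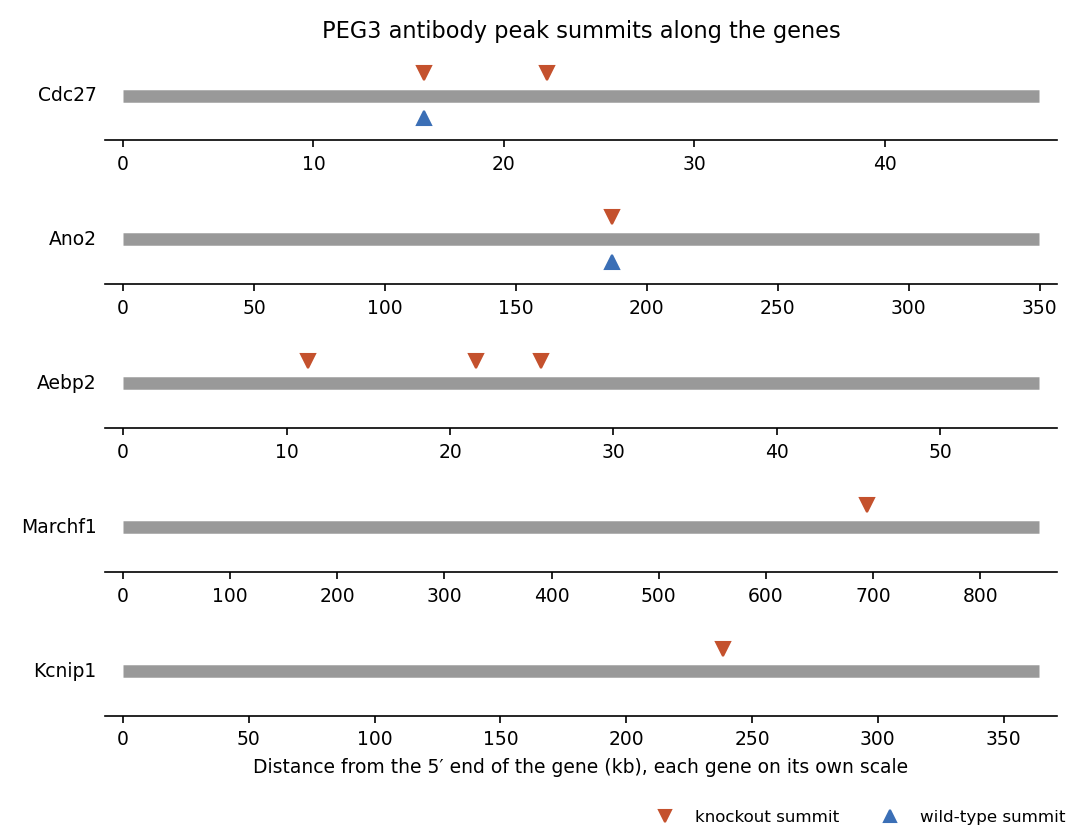
Summits of the 10 PEG3 antibody peaks along each gene, as distance from the gene's 5′ end in kb (horizontal axes, 1 scale per gene), with knockout above the grey gene body and wild type below it. The Aebp2 summits lie between 11.3 and 25.6 kb from the 5′ end of the gene, and the paired summits in Cdc27 and Ano2 coincide at this scale.

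Gene strands and transcription starts were taken from a RefSeq promoter table of GRCm38.p6, the assembly named mm10. The 3 Aebp2 summits lay 11.3, 21.6 and 25.6 kb from the 5′ end of the gene, all nearer to that end than to the other, with spacings of 10.2 kb and 4001 bp. The Cdc27 summits lay 15.8 and 22.3 kb from its 5′ end. The Ano2 site lay near the middle of the gene, 187 kb from the 5′ end. The Kcnip1 and Marchf1 sites lay 65.5% and 81.3% of the way along. No site was at a listed start: the nearest start of the same gene was 6.90 kb away at the first Aebp2 site, 73.6 kb in Marchf1, 74.3 kb in Kcnip1 and 166 kb in Ano2. Exons and introns, and the letters under the peaks, were not analysed here, as the reference tables used hold genes and promoters only. No other RefSeq gene overlapped any of the 10 peaks.

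The peaks were short. The 8 knockout peaks measured 99 to 258 bp (median 112 bp), and 6 of them were under 150 bp, compared with 77 of 163 in the whole list (47.2%; median 155 bp). The fragment length used by the peak caller was 99 bp in knockout and 104 bp in wild type and sequenced tags measured 100 bp. The Ano2 peak was the longest in both genotypes (164 bp in wild type, 258 bp in knockout), and the shared Cdc27 peak measured 109 and 140 bp. Both shared peaks were longer in knockout, where they were also taller.

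These short peaks were not low in fold. The 8 knockout peaks had folds of 5.69 to 25.8 (median 9.08), where the whole knockout list had a median of 5.02. They ranked from 6 (Ano2) to 73 (the Aebp2 site at 25.6 kb) of 163. By fragments over the summit they ranked lower, from 72 to 145, and 47 of the 163 peaks reached at least 80% of the highest pileup that 1 tag per position allows. Fold and height come from the contrast that chose the genes, so these ranks are given as a description.

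**Figure D3:**
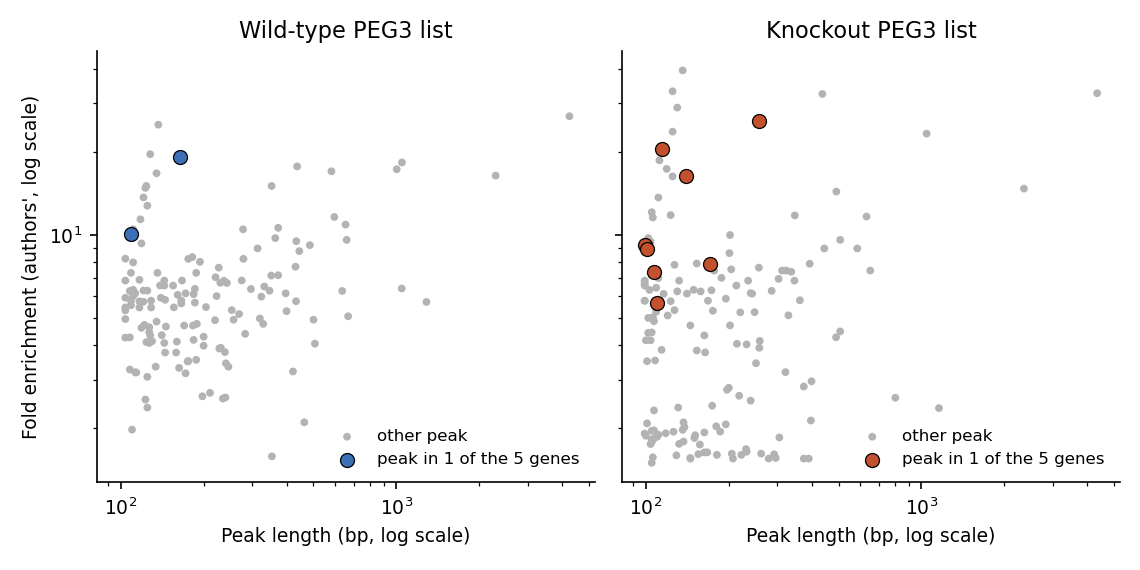
Peak length in bp against the authors' fold enrichment (both log axes) for the wild-type and knockout PEG3 lists, 1 point per peak, with the peaks of the 5 genes outlined in colour. The 8 knockout peaks lie at 99 to 258 bp and at folds of 5.69 to 25.8.

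Input fragment counts at these sites were small, as was the genome-wide mean of 1.40 over a base in the knockout input. The background that the peak caller set against each summit was recovered from pileup and fold, and it matched a whole number of input tags in the window it came from or the genome-wide floor. In knockout, 2 input fragments covered the Ano2 summit, 2 each the Aebp2 summits at 11.3 and 25.6 kb, and 3 the Kcnip1 summit. The Marchf1 site and the Aebp2 site at 21.6 kb were at the floor, which allows at most 1 input fragment over the summit. The Cdc27 background came from the surrounding 1 kb, with 17 input tags at the shared site and 16 at the other one. The genome-wide mean was 14.2 per kb, and at most 1 input fragment covered either summit. These counts come from an input with 1.56 times as many tags as the knockout PEG3 library. The same summits had 12 to 58 ChIP fragments.

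At the shared sites the input counts of the genotypes lay close together in Cdc27 and were too small to compare in Ano2. In Cdc27 the 1 kb window held 14 wild-type and 17 knockout input tags, 0.576 and 0.642 per 1000000 input tags. In Ano2 the wild-type background was at the floor, at most 1 fragment, and the knockout one was 2 fragments. For comparison, the 4 shared sites in or near Chd9, Cdc20b, Plekhh3 and Hexim1, which were picked for being taller in wild type, had scaled backgrounds of 4.40 to 6.16 fragments in wild type and 1.19 to 2.22 in knockout. Their wild-type peaks were 582 to 1049 bp long, against 109 and 164 bp in Cdc27 and Ano2. The difference was not tested, since both sets were picked for their heights.

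Among all peaks of knockout alone a background this low was uncommon, but among those of similar fold it was usual. The 6 sites had scaled backgrounds of 0.899 to 1.93 fragments, whereas the median over all 98 was 45.6, and 22 of the 98 were under 2 (22.4%). All 6 sites had a fold of at least 5, as did 29 of the 98, and most of those 29 were under 2. The fold divides by the background, so the 2 values are tied. Of the 98, 46 reached at least 80% of that highest pileup, and none of the 6 did. Their summits reached 6.06% to 19.2% of that ceiling. Shared knockout peaks were closer to these sites, with a median background of 1.21. Background comes from the same peak calls that chose the genes, so this too is a description.

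**Figure D4:**
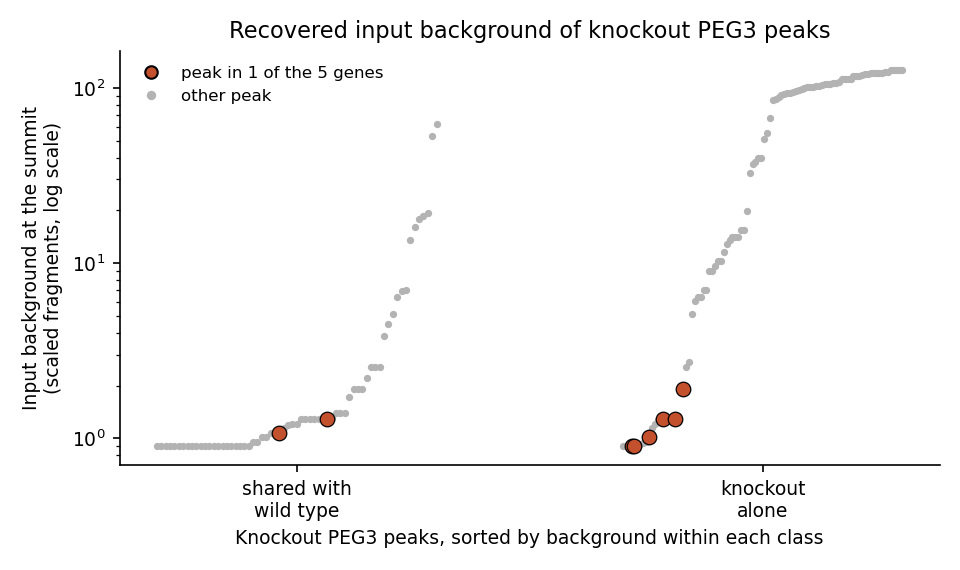
Input background recovered at the summit (scaled fragments, log axis) for the 65 shared and 98 knockout-alone peaks of the knockout PEG3 list, sorted within each class, with the 8 peaks of the 5 genes outlined. All 8 lie between 0.899 and 1.93, at the low end of the knockout-alone class (median 45.6) and around the median of the shared class (1.21).

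H3K9me3 was not used to choose the genes. Over all protein-coding genes 59 of 21900 had an H3K9me3 peak of either genotype within 10 kb (0.269%), and of the 5 genes none had one. The nearest listed H3K9me3 peak lay 5.34 Mb from Aebp2 and 6.42 Mb from Ano2, 10.2 Mb from Marchf1, 15.4 Mb from Cdc27 and 30.4 Mb from Kcnip1. A summit at the background floor could have held up to 8 wild-type or 10 knockout H3K9me3 fragments without being listed. Weaker or broader H3K9me3 is therefore not covered by these lists. Across the knockout PEG3 list 24 of 163 peaks overlapped an H3K9me3 peak of either genotype, and 0 of the 8 in the 5 genes did. With so few peaks and genes, 0 of 8 and 0 of 5 are near these shares, and nothing is read from them.

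The window of 10 kb made no difference to the membership. The nearest PEG3 peak outside a window lay 881 kb from Ano2, a wild-type peak in Spsb2 with 20 fragments and a fold of 6.08. Next came the peak in Hexim1, 1.39 Mb from Cdc27, with 98 wild-type and 50 knockout fragments. Around Marchf1 the nearest other PEG3 peaks lay 9.07 Mb (wild type) and 17.6 Mb (knockout) away, and around Kcnip1 8.53 Mb in both lists.

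Related genes were looked up in 5 lists of the same complexes and families, and 48 genes besides the 5 had a position. Within 10 kb a knockout PEG3 peak lay at 76 of the 21900 protein-coding genes (0.347%) and a wild-type one at 141 (0.644%). Of the 16 APC/C subunits and activators, Cdc27 alone had a PEG3 peak in either genotype, and of the 10 anoctamins Ano2 alone. Of the 12 Polycomb complex 2 genes Aebp2 alone had one, of the 11 membrane-bound RING-CH ligases Marchf1, and of the 4 Kv channel-interacting proteins Kcnip1, each with a listed peak in knockout and none in wild type. With shares this small, 0 of 48 related genes is near the background. No related gene had an H3K9me3 peak within 10 kb in either genotype.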

How the data were processed

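The submitters' processing notes name Bowtie2, SAMtools and the mm10 build, without versions. Per the file headers, the authors called peaks per ChIP sample with MACS2 2.2.6, using the same genotype's input as control (q threshold 0.05, 1 tag kept per position, larger library scaled down). The deposited tables give per peak the pileup signal, the fold enrichment (pileup over input background, 1 added to both), and −log10 p-values and q-values, whose column names were lost. From these, fragments, background ((pileup + 1) / fold − 1) and whole input tags (tolerance 0.003 for the fragment window, 0.03 for 1 and 10 kb) were recovered. In the PEG3 lists no background was left unresolved, and recomputed Poisson −log10 p differed by at most 0.000102. Ratios have exact conditional intervals, heights exact Poisson intervals, and reads carry no molecular identifiers. Functions were tested on simulated data. No test was made. The 5 genes, the peaks in their windows, the nearest peaks outside and related genes with a peak are named; genes and lists were chosen with earlier results of these data known. Alternatives were other windows, thresholds, overlaps and height measures. The planned exon and sequence classes were not run. Python 3.11.15, NumPy 2.4.6, SciPy 1.17.1 and matplotlib 3.10.9 were used.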

Additional observations from a re-analysis of the deposited data

How the results depend on the processing

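The counts of 8 knockout and 2 wild-type peaks held with the gene body only, with 50 kb on either side, at a −log10 q of at least 3 and at a fold of at least 5. The 6 peaks of knockout alone held under a gap of up to 1000 bp, a reciprocal overlap of 50%, the same stricter thresholds and without peaks at the duplicate ceiling. Without peaks shorter than the wild-type minimum there were 4. At 3 sites (Marchf1, Kcnip1 and the second Cdc27 site) the ratio to the wild-type listing limit had an interval wholly above 1. That interval treats the limit as a counted height. With the limit taken as fixed, the height intervals of the first and second Aebp2 sites also lay above it. Both settings, the minimum length and the listing limit, were chosen after seeing the data. By the ratio interval only Marchf1 passed both, since the Kcnip1 and second Cdc27 peaks were shorter than the wild-type minimum. The height ratio was 1.62 to 1.98 in Cdc27 and 1.35 to 1.87 in Ano2 under the authors' fold, a correction for fragment length and subtraction of the input background. The median knockout background was 1.18, and 1.28 without values at the floor. With 50 kb on either side 1 related gene, Ezh1, had a PEG3 peak in each genotype (0 with 10 kb), and H3K9me3 stayed at 0. No paired analysis was possible because each group has 1 sample, and the planned exon, intron and sequence classes were not run. Depth limits the Aebp2 sites and the second Cdc27 site, at 12 to 17 fragments over the summit.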
